A study of Mus musculus with 4 samples.

Results

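The genes described here carry pyruvate and fatty acids into mitochondria, oxidise them in the TCA cycle, and control how many mitochondria a cell makes. They number 39 and were taken by name, as a list of pathway members and by no cut on their values. The list was chosen with earlier results of these data known. The annotation matched 38 of them to assembled transcripts, out of 11042 genes named in all. The remaining member, Hadhb, was not matched and is not analysed here.

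Pyruvate made by glycolysis enters the cycle through the pyruvate dehydrogenase complex, which the Pdk kinases switch off by phosphorylation. Fatty acids are freed by Lpl, taken up with Cd36, carried by Fabp3, activated by Acsl enzymes, and moved across the mitochondrial membranes by the Cpt1, Slc25a20 and Cpt2 carnitine shuttle before beta-oxidation. Skeletal muscle relies on both fuels, and the coactivators Ppargc1a and Ppargc1b, with Esrra, Nrf1 and Tfam, are known for driving mitochondrial genes in that tissue.

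Polyadenylated RNA of C2C12 cells, an established mouse skeletal myoblast line that fuses into myotubes when serum is lowered, was sequenced as paired ends in 4 libraries. The labels give the strain as C57BL/6 and no treatment other than the medium. The groups were exponentially growing cells in high serum, labelled -24 h, and cultures at 60 h, 120 h and 168 h in low serum, timed from the switch made at confluence. The time series was made to follow transcripts and their isoforms through myogenic differentiation.

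There was 1 library at each time and no replicate, so every difference below is one between libraries, with no test and no p-value. Levels are in FPKM, which counts sequenced fragments per length of transcript and per library total, added over a gene's assembled transcripts, and ± is the distance to the deposited confidence limit, which holds no variation between cultures. The words rose and fell are kept for a pair of libraries that differed at least 2-fold in FPKM + 1, with 1 FPKM or more in the higher one and limits apart. Ratios are on that log2(FPKM + 1) scale, which understates the change of low genes. A second measure, the level through the introns, adds the FPKM of the transcripts that contain a given intron and takes the median over introns, so that pieces of a broken gene are not added up. Where most introns lie in every transcript of a gene, this level equals the sum, and a call by both is then no further support. A further measure spreads the gene's fragments over all of its exons assembled in any library. All comparisons share libraries, so their counts are not independent of each other.

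The libraries held 28513976 fragments in growth, 48228887 at 60 h, 24488681 at 120 h and 43845262 at 168 h. Relative to the gene's level, the median distance to the limit came to 10.9%, 9.31%, 13.6% and 10.2% in that order, so the 120 h library was the least precise. The 5 markers of muscle differentiation summed to 45.3, 7545, 10780.1 and 9711 FPKM, and the 4 markers of growing cells summed to 514, 123, 75.9 and 40.7 FPKM. Of 8 adipocyte markers only Fabp4 and Pparg were matched at all, with sums of 20.7, 3.18, 6.16 and 2.38 FPKM, while Adipoq, Plin1, Cidec, Retn, Cfd and Lep had no matched transcript. Of 5 macrophage markers 3 were matched, with sums of 1.14, 5.75, 5.11 and 5.63 FPKM, and of 5 endothelial markers only Vwf was, at 0, 5.34, 10.4 and 5.72 FPKM. Their part in the results below was not tested. In RNA of whole cultures, fewer cells of a kind and less RNA per cell cannot be told apart.

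The main comparison, 168 h against growth, asks how the pathway of a late myotube culture differs from that of dividing myoblasts. Of the 38 members 6 rose and 3 fell, beside a background of 15.5% risen and 19.2% fallen among the 10972 genes compared. The 6 that rose were Pdk2, Acadvl and all 4 genes of lipid uptake and activation, Lpl, Cd36, Fabp3 and Acsl1. Each also rose through the introns, as did 12.2% of all genes. For Acadvl, Cd36 and Fabp3 both measures were the same number, so that was no further support. Cd36 and Fabp3 had no listed transcript in growth, and 4 rises were left among members assembled in both libraries. The 3 that fell were Cpt1a, Pdk4 and Etfa, and Etfa did not fall through the introns. None of the 13 TCA cycle genes and none of the 5 regulators passed the rule, but Mdh1 and Idh3b did so after the libraries were rescaled, Idh3g over all assembled exons, Suclg2 as a fall with a pseudocount of 0.1, Ppargc1a through the introns and over all assembled exons, and Nrf1 as a fall through the introns. The median log2 ratio of the members was 0.26 by the sum and 0.35 through the introns, beside -0.14 and -0.11 over all genes.

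**Figure D1:**
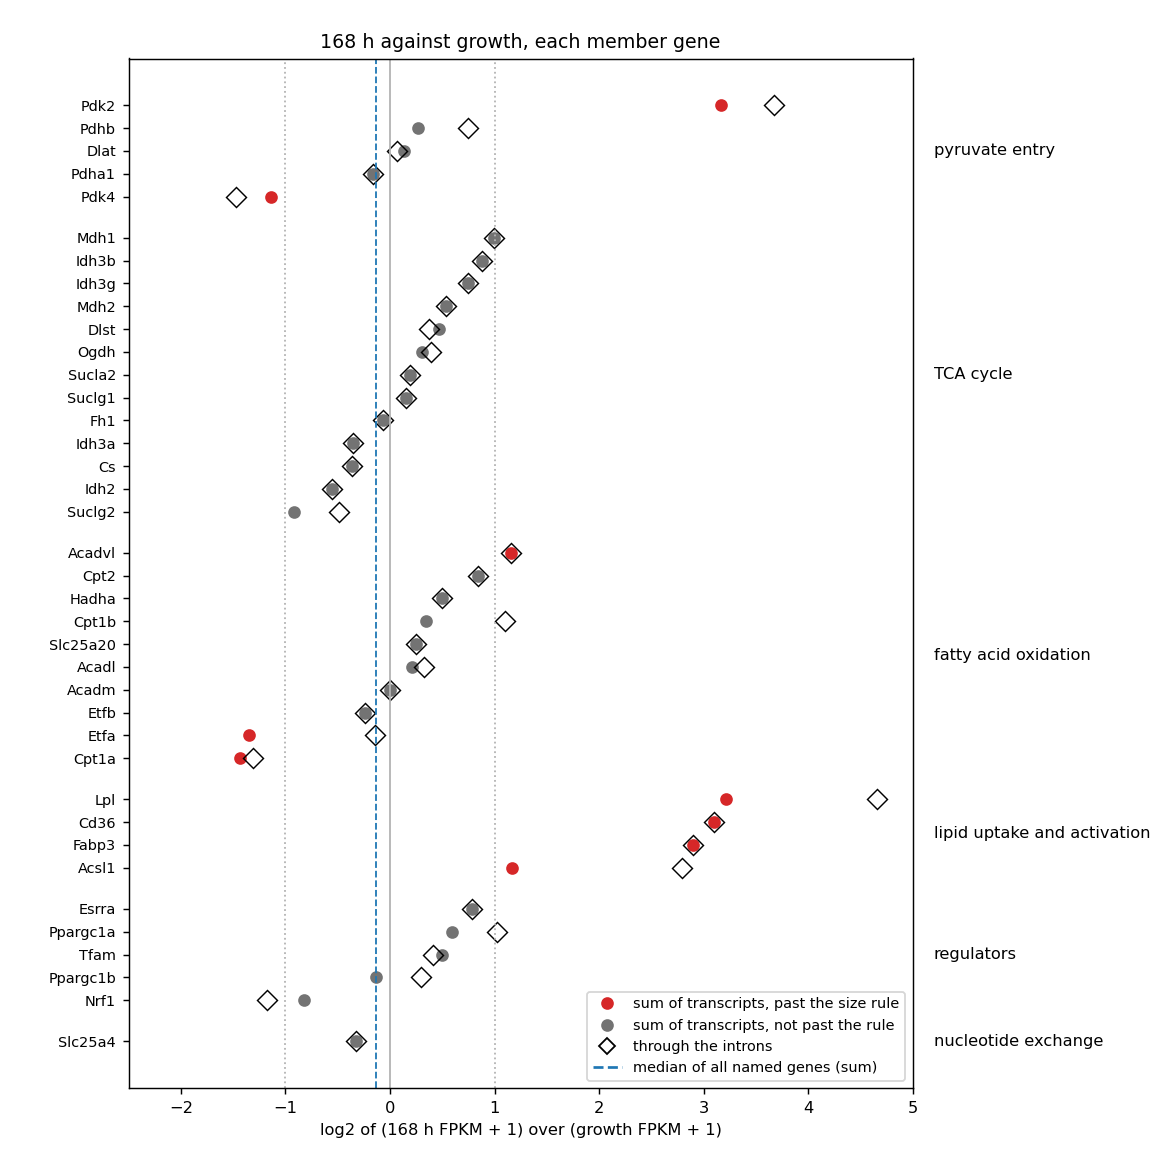
Log2 ratio of FPKM + 1 at 168 h over growth for each of the 38 matched members, grouped by role. Filled circles are summed transcripts, red where past the size rule, open diamonds are the level through the introns, dotted lines mark 2-fold, and the dashed line is the median of all named genes (-0.14). The 4 lipid uptake genes lie between 1.16 and 3.22 by the sum, the points of Cd36 and Fabp3 being set by the added 1 FPKM since neither was listed in growth, and the 13 TCA cycle genes between -0.92 and 0.99.

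All 4 genes of lipid uptake and activation passed the rule as rises at 168 h against growth, 2 of them, Cd36 and Fabp3, from no listed transcript in growth. Their summed level was 9.83 FPKM in growth, 19.1 FPKM at 60 h, 55.5 FPKM at 120 h and 71.5 FPKM at 168 h. Among the genes assembled in both libraries only Lpl and Acsl1 of this group remained, both risen. All 4 remained low beside the TCA cycle genes, whose median at 168 h was 121 FPKM.

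Lpl encodes lipoprotein lipase, the secreted enzyme that frees fatty acids from circulating triglyceride (chromosome 8, 71404307 to 71429213, in the coordinates of the files). It had 3.67 ± 1.31 FPKM in growth, 2.83 ± 0.314 FPKM at 60 h, 21.2 ± 1.86 FPKM at 120 h and 42.5 ± 1.28 FPKM at 168 h. The 120 h and 168 h libraries stood well apart from both earlier ones, and the growth and 60 h limits overlapped. In growth the gene was assembled as 5 separate pieces from 45 fragments, and its level through the introns there was 0.725 FPKM. The rise at 168 h against growth was 11.6-fold by the sum, a log2 ratio of 3.22, and 4.66 through the introns. The 60 h ratio to growth had a different sign by measure, -0.29 by the sum and 1.15 through the introns.

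Cd36 encodes a membrane receptor that takes up long-chain fatty acids (chromosome 5, 17289002 to 17394703). No transcript of it was listed in growth, and its level was 4.78 ± 1.44 FPKM at 60 h, 6.22 ± 2.18 FPKM at 120 h and 7.55 ± 2.26 FPKM at 168 h. The limits of the 3 differentiated libraries overlapped one another, so no order among them is read.

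Fabp3 encodes the muscle and heart fatty acid binding protein of the cytosol (chromosome 4, 129985974 to 129994146). It was also not listed in growth, and had 1.94 ± 0.676 FPKM at 60 h, 13.2 ± 1.16 FPKM at 120 h and 6.45 ± 0.708 FPKM at 168 h. The limits of all 3 were apart, with the 120 h library highest, and the ratio of 168 h to 120 h was -0.93, short of the rule, and -1.02 and past it with a pseudocount of 0.1. Of the gene's words of 50 bases, 37.4% also occur in other annotated genes, and 19.6% of its exon bases overlap genes on the opposite strand, so its level is uncertain. No fold is given for either gene against growth, since a gene without a listed transcript can lack an assembly and not RNA.

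Acsl1 encodes the long-chain acyl-CoA synthetase that commits fatty acids to use in muscle (chromosome 8, 47556482 to 47621402). It had 6.16 ± 1.33 FPKM in growth, 9.59 ± 0.458 FPKM at 60 h, 14.9 ± 0.804 FPKM at 120 h and 15.0 ± 0.603 FPKM at 168 h. The limits of the 4 libraries were apart except between 120 h and 168 h. In growth it lay in 3 pieces and the level through the introns was 1.31 FPKM, so the ratio of 168 h to growth was 1.16 by the sum and 2.79 through the introns. At 60 h against growth Acsl1 had a ratio of 0.56 by the sum, and 2.19 and past the rule through the introns.

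The 250 bases before the annotated start are shown for the 3 lipid genes that have an entry among the promoter windows of RefSeq (build GRCm38.p6), since these genes were higher at 168 h than in growth, and for Cpt1a, which was lower. Sequences run 5′ to 3′ on the gene's strand, and capitals mark CAGCTG, a motif bound by muscle bHLH factors. The windows are Cd36 at chr5:17835897-17836146 on the minus strand, Fabp3 at chr4:130308488-130308737, 1 of the entries of Acsl1 at chr8:46490716-46490965 and Cpt1a at chr19:3323051-3323300, the last 3 on the plus strand. The other Acsl1 entry, at chr8:46470787-46471036, holds no CAGCTG and is not printed. Which of these Acsl1 starts the assembled transcripts use was not examined, so the printed window may not lie before the RNA measured here.
Cd36: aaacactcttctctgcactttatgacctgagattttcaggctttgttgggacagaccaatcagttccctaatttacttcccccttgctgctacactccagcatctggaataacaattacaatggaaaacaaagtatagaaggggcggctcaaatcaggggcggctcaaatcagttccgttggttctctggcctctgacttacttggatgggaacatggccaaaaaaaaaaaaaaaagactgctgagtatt
Fabp3: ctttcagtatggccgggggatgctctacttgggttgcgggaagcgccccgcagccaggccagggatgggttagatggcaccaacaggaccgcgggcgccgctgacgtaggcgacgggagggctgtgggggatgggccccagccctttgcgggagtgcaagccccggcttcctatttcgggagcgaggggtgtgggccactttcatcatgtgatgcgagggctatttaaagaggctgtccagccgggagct
Acsl1: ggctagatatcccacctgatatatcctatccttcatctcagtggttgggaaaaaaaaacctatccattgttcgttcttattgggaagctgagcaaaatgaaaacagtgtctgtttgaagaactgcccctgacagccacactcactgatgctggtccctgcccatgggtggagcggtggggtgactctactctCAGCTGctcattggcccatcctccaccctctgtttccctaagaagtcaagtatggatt
Cpt1a: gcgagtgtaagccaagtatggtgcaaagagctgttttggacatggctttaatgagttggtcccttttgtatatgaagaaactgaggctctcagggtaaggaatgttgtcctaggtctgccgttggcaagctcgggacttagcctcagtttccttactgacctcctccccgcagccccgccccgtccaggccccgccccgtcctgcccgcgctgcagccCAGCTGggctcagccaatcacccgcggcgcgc

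Windows of 300 bases, from 250 before to 50 after the start, were found for 35 of the 39 members, 43 windows in all. CAGCTG, which reads the same on both strands, lay in the windows of 3 members, Acsl1, Cpt1a and Esrra. That was 6.98% of the member windows, beside 16.3% of the 32851 windows of the table. The ERR motif TNAAGGTCA, the palindromic NRF1 consensus and the PPAR direct repeat, searched on both strands, were in none of the 43 member windows. Of all windows 1.28%, 0.971% and 0.0396% held them, in the same order. A match or its absence in so short a window describes only these letters. Cpt1b, Idh3a, Lpl and Ppargc1b have no entry and were not searched.

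Among the 5 genes of pyruvate entry, 1 kinase gene rose and the other fell at 168 h against growth. Pdk2 encodes a kinase that inactivates pyruvate dehydrogenase (chromosome 11, 94885888 to 94902704). It had 3.31 ± 0.659 FPKM in growth, 13.6 ± 0.605 FPKM at 60 h, 22.2 ± 1.05 FPKM at 120 h and 37.7 ± 1.01 FPKM at 168 h. Each library lay above the one before it with limits apart, and 168 h was 11.4-fold over growth by the sum, a log2 ratio of 3.17. In growth Pdk2 was assembled as 2 transcripts from 101 fragments, with 2.04 FPKM through the introns. That ratio was 3.67 through the introns and 4.33 over all assembled exons, so the size of the rise depends on the measure. Pdk4 encodes a further kinase of the same enzyme, known to be induced by fasting and fatty acids (chromosome 6, 5433385 to 5446420). It had 32.6 ± 1.13 FPKM in growth, 6.63 ± 0.570 FPKM at 60 h, 13.1 ± 1.5 FPKM at 120 h and 14.3 ± 0.980 FPKM at 168 h. Growth was highest and 60 h lowest, and by the sum the limits of 120 h and 168 h overlapped. Through the introns Pdk4 had 7.51 ± 0.746 FPKM at 120 h and 11.1 ± 0.584 FPKM at 168 h, with limits apart. Pdk4 fell at 60 h and at 168 h against growth, with log2 ratios of -2.14 and -1.14. At 168 h it rose over 60 h, 1.0 by the sum and 1.21 through the introns. The fall at 168 h against growth was -0.95 and no longer past the rule when the libraries were rescaled by their median ratio.

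The 3 subunit genes of the complex itself were not past the rule at 168 h against growth. Pdha1, the E1 alpha subunit, ranged only from 50.8 to 57.3 FPKM over the 4 libraries. Pdhb, the E1 beta subunit, was broken into 2 or 3 transcripts in every library, with 55.5 ± 5.78, 97.9 ± 7.26, 88.8 ± 6.00 and 67.2 ± 6.41 FPKM by the sum, and its level through the introns was 16.1, 23.3, 34.9 and 27.7 FPKM in growth, at 60 h, at 120 h and at 168 h. Its ratio of 60 h to growth passed the rule after rescaling alone, at 1.03. Dlat, the E2 acetyltransferase, had 35.7 ± 1.42 FPKM in growth, 33.6 ± 0.932 FPKM at 60 h, 84.0 ± 3.62 FPKM at 120 h and 39.4 ± 1.27 FPKM at 168 h. At 120 h it lay in 3 pieces, and over all assembled exons the levels were 27.8, 33.6, 33.4 and 30.6 FPKM. The high 120 h value of Dlat was therefore present in the sum and absent from the measure over all exons.

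**Figure D2:**
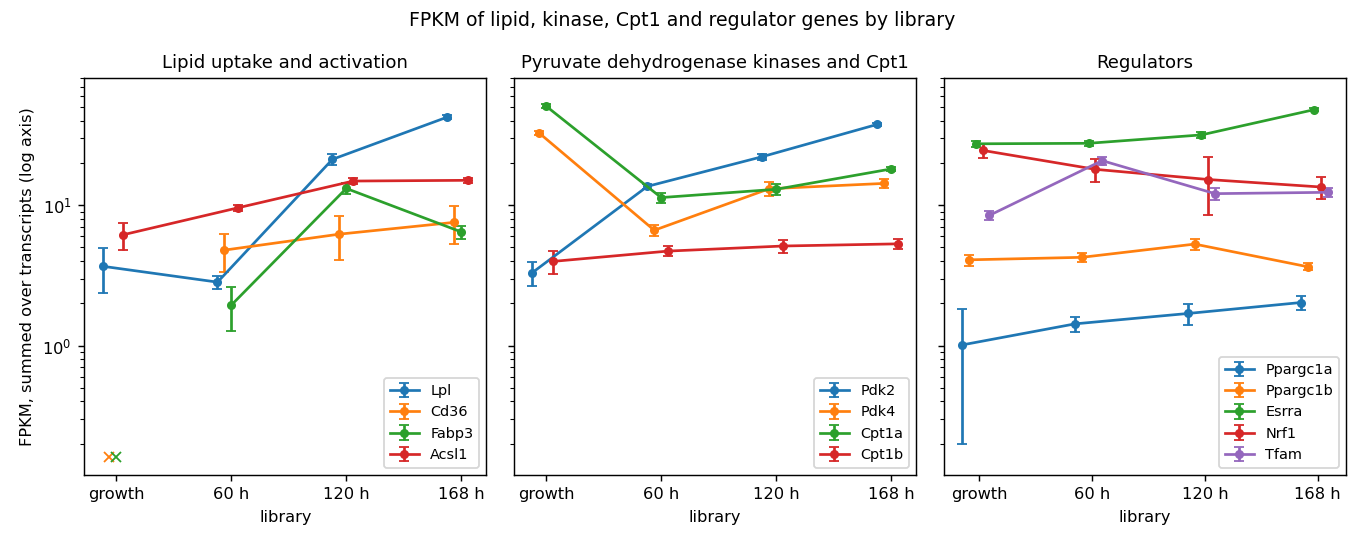
FPKM on a log axis in growth, at 60 h, at 120 h and at 168 h for lipid uptake genes, the Pdk and Cpt1 genes and the regulators. Points are summed transcripts, bars reach the deposited confidence limits, and crosses at the bottom mark Cd36 and Fabp3 in growth, where no transcript was listed. Pdk2 climbs to 37.7 FPKM at 168 h while Pdk4 and Cpt1a stay below their growth levels.

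Related genes can be set side by side as shares, since FPKM is per length. Pdk4 made up 90.8% ± 1.69 of the summed Pdk4 and Pdk2 level in growth, 32.7% ± 2.13 at 60 h, 37.1% ± 2.89 at 120 h and 27.5% ± 1.47 at 168 h. Growth was the only library in which Pdk4 was the more abundant of the pair. Cpt1b, the muscle form of the outer membrane carnitine palmitoyltransferase, made up 7.27% ± 1.32 of the Cpt1b and Cpt1a sum in growth, 29.4% ± 2.40 at 60 h, 28.3% ± 2.82 at 120 h and 22.6% ± 1.45 at 168 h. Cpt1a, the form known from liver, stayed the more abundant in all 4 libraries, and the Cpt1b levels by the sum in growth and at 60 h had overlapping limits.

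Among the genes of fatty acid oxidation, 10 of 11 were matched. At 168 h against growth 1 of them rose, Acadvl, and 2 fell, Cpt1a and Etfa. Cpt1a (chromosome 19, 3323309 to 3386743) had 50.7 ± 1.67 FPKM in growth, 11.3 ± 0.964 FPKM at 60 h, 12.98 ± 1.19 FPKM at 120 h and 18.1 ± 0.559 FPKM at 168 h. Growth stood far above the other libraries, the 60 h and 120 h limits overlapped, and 168 h lay above both. The log2 ratios to growth were -2.07 at 60 h and -1.44 at 168 h by the sum, and -2.10 and -1.31 through the introns. Cpt1b (chromosome 15, 89246837 to 89256311) had 3.98 ± 0.769 FPKM in growth, 4.71 ± 0.369 FPKM at 60 h, 5.12 ± 0.537 FPKM at 120 h and 5.30 ± 0.409 FPKM at 168 h. Of its words 82.1% also occur in the annotated gene Gm44502, and it was not past the rule in any comparison by the sum. Its level through the introns in growth was 1.95 FPKM, from which the ratio of 168 h to growth was 1.10 and past the rule, while Cpt1a fell by all 3 measures.

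The later steps of the carnitine shuttle were not past the rule in any comparison as deposited. Cpt2, the inner membrane transferase, had 13.3 ± 0.893, 17.5 ± 0.789, 22.5 ± 1.25 and 24.5 ± 0.970 FPKM in growth, at 60 h, at 120 h and at 168 h, and Slc25a20, the carnitine-acylcarnitine exchanger, ranged from 17.7 to 23.9 FPKM. Cpt2 at 168 h was 0.84 above growth on the log2 scale, short of the rule, and 1.02 and past it after rescaling.

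Acadvl encodes very long-chain acyl-CoA dehydrogenase, the first enzyme of beta-oxidation for the longest chains (chromosome 11, 69822645 to 69829040). It had 37.1 ± 1.33 FPKM in growth, 45.2 ± 1.08 FPKM at 60 h, 83.2 ± 2.51 FPKM at 120 h and 84.1 ± 6.19 FPKM at 168 h. The limits of 120 h and 168 h overlapped, and both lay apart from the 2 earlier libraries. The ratio of 168 h to growth was 1.16 by the sum and through the introns, and 0.69 over all assembled exons, which is not past the rule. Of its annotated exon bases 42.9% overlap Dvl2 on the opposite strand, and the library protocol describes no marking of strand.

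The dehydrogenases for shorter chains differed in level more than in time. Acadl, for long chains, ranged from 108 to 148 FPKM, and Acadm, for medium chains, from 12.3 to 16.4 FPKM. Hadha, the alpha subunit of the trifunctional protein, had 62.1 ± 1.78, 91.8 ± 1.63, 115 ± 2.60 and 87.9 ± 1.66 FPKM in growth, at 60 h, at 120 h and at 168 h. Its limits were apart in every pair of libraries, with growth lowest and 120 h highest, and no ratio passed the rule.

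Etfa and Etfb encode the subunits of the electron transfer flavoprotein, which receives electrons from the acyl-CoA dehydrogenases. Etfa had 56.8 ± 3.75 FPKM in growth, 23.1 ± 4.01 FPKM at 60 h, 29.2 ± 2.00 FPKM at 120 h and 21.7 ± 1.36 FPKM at 168 h. In growth it was split into 2 pieces that share no intron, and through the introns the levels were 24.1, 23.1, 29.2 and 21.7 FPKM in the same order. The fall of Etfa was thus present in the sum alone, with a ratio of 168 h to growth of -1.35 by the sum and -0.14 through the introns. Etfb ranged from 135 to 184 FPKM, and 54.5% of its words also occur in other annotated genes.

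The 13 TCA cycle genes, the largest role group, had the highest summed level of the groups. Their median was between 94.4 and 122 FPKM in the 4 libraries, below Slc25a4 in each. The sum of the TCA cycle genes was 1469 FPKM in growth, 1510 FPKM at 60 h, 1924 FPKM at 120 h and 1859 FPKM at 168 h. For 10 of the 13 the highest library was less than 2-fold over the lowest, 76.9%, beside 40.6% of the 9960 genes with a value in all 4 libraries, and through the introns it was 11, 84.6%, beside 50.9%. The genes beside them were not matched for level. By either measure the share was 70% of the 10 fatty acid oxidation genes, 40% of the 5 pyruvate entry genes and 63.9% of the 36 members with such values. At 168 h against growth their median log2 ratio was 0.20, with 8 above 0 and 5 below.

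Mdh1 and Mdh2, the cytosolic and mitochondrial malate dehydrogenases, were among the highest. Mdh2 led in all 4 libraries, with 345 ± 4.72 FPKM in growth, 407 ± 4.62 FPKM at 60 h, 484 ± 7.45 FPKM at 120 h and 502 ± 5.52 FPKM at 168 h, and with 344, 296, 318 and 346 FPKM over all assembled exons. Mdh1 had 142 ± 3.81 FPKM in growth, 177 ± 3.24 FPKM at 60 h, 264 ± 5.63 FPKM at 120 h and 282 ± 4.33 FPKM at 168 h. Its 4 libraries were in the order of time with limits apart, and its ratio of 168 h to growth, 0.99, was the highest of the 13 and just short of the rule. After rescaling it was 1.19 and past it.

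Cs encodes citrate synthase, the entry step of the cycle (chromosome 10, 127774769 to 127800975). It had 128 ± 2.58 FPKM in growth, 80.3 ± 1.67 FPKM at 60 h, 166 ± 3.07 FPKM at 120 h and 99.1 ± 1.59 FPKM at 168 h. The high and low libraries alternated, and so did the assembled last exon, which was 1511, 2952, 1492 and 2887 bases long in that order. Over all assembled exons the levels were 85.2, 79.7, 109 and 97.6 FPKM. The ratio of 120 h to 60 h was 1.04 and past the rule by the sum. It was not past the rule over all assembled exons, at 0.45, or after rescaling, at 0.84.

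Idh2 and the Idh3 genes encode the NADP-dependent and NAD-dependent mitochondrial isocitrate dehydrogenases, and the NAD-dependent enzyme is built from alpha, beta and gamma subunits. Idh2 had 178 ± 3.76 FPKM in growth, 102 ± 2.21 FPKM at 60 h, 98.3 ± 3.08 FPKM at 120 h and 121 ± 2.54 FPKM at 168 h. Growth was highest by all 3 measures, and the 60 h ratio of -0.79 was short of the rule. Idh3a, the catalytic alpha subunit, had 69.2 ± 2.01 FPKM in growth, 60.5 ± 1.42 FPKM at 60 h, 122 ± 3.96 FPKM at 120 h and 54.0 ± 1.43 FPKM at 168 h. At 120 h its last exon was assembled with 501 bases beside a separate transcript of 750 bases, and over all assembled exons the levels were 66.8, 60.5, 67.6 and 52.1 FPKM. Idh3g, the gamma subunit, had 74.8 ± 2.83, 70.1 ± 1.60, 118 ± 3.26 and 126 ± 2.36 FPKM in the 4 libraries in order of time, and its ratio of 168 h to growth was 0.74 by the sum and 1.21 over all assembled exons. Idh3b, the beta subunit, had 82.7 ± 2.30, 110.0 ± 3.12, 125 ± 5.07 and 153 ± 5.54 FPKM, and 78.2, 70.0, 84.6 and 94.2 FPKM over all assembled exons. So the alpha subunit gene had its lowest value at 168 h while the beta and gamma subunit genes had their highest.

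**Figure D3:**
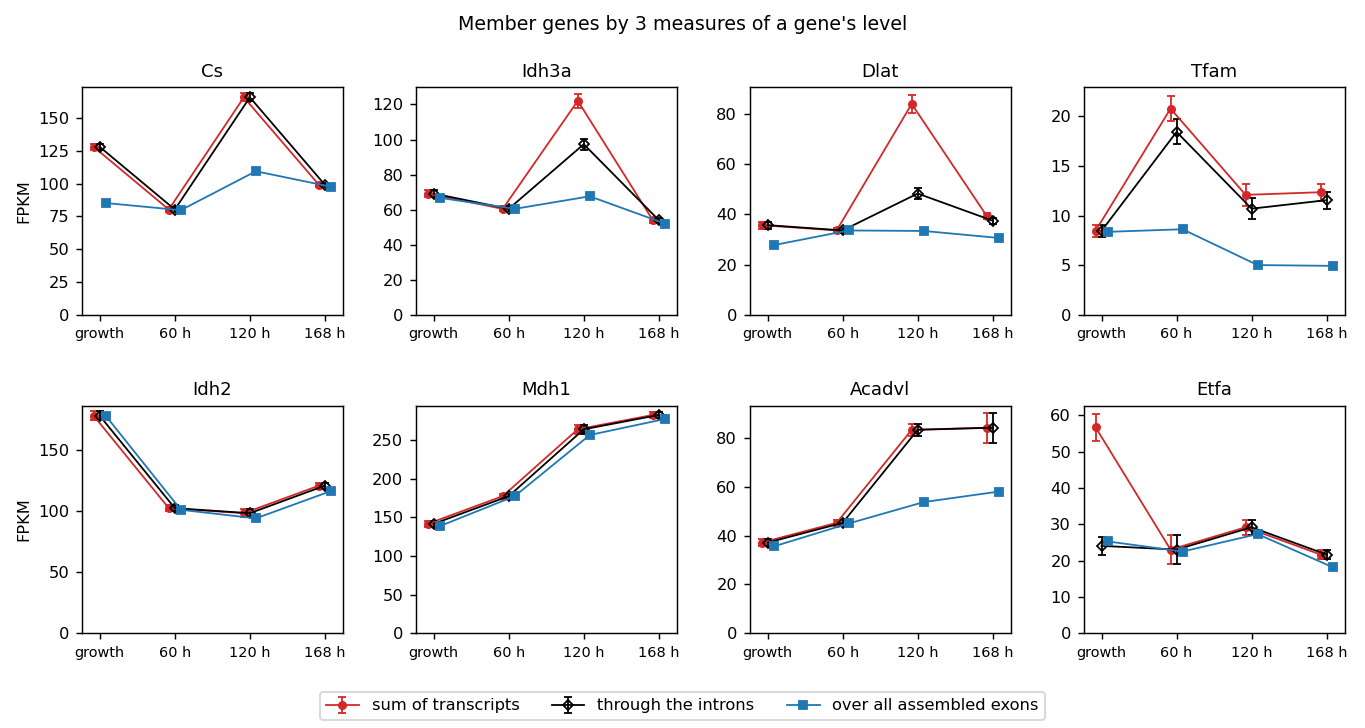
FPKM of 8 members in growth, at 60 h, at 120 h and at 168 h by the sum of transcripts (circles), through the introns (diamonds) and over all assembled exons (squares), with bars to the confidence limits for the first 2. Idh2 and Mdh1 have nearly the same values by each measure. The 120 h peaks of Cs, Idh3a and Dlat and the 60 h peak of Tfam are lower or absent over all assembled exons, where Tfam has 8.36 and 8.62 FPKM in growth and at 60 h.

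Idh3b also changed in structure. Its last exon is joined through a short last intron of 536 bases or a long one of 825 bases that starts at the same donor (chromosome 2, minus strand, 130105463 to 130105998 and 130105174 to 130105998 in the coordinates of the files). The transcript with the long intron was not assembled in growth and held 18.7% ± 1.22 of the gene's level at 60 h, 21.4% ± 1.92 at 120 h and 38.6% ± 1.86 at 168 h. The 168 h share stood apart from the 60 h and 120 h shares, whose limits overlapped. In the GRCm38 annotation, matched by intron lengths, the long intron skips 289 bases that hold the last 87 coding bases of the other form, stop codon included, and 202 bases after it. Those 87 bases are shown in capitals behind the exon before them, at chr2:130280263-130280323 and chr2:130279640-130279726 on the minus strand, because they are the protein end that only the short-intron form encodes.
Idh3b: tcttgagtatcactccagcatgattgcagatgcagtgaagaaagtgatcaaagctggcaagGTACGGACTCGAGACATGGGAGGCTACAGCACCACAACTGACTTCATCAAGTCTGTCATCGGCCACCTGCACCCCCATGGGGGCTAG

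**Figure D4:**
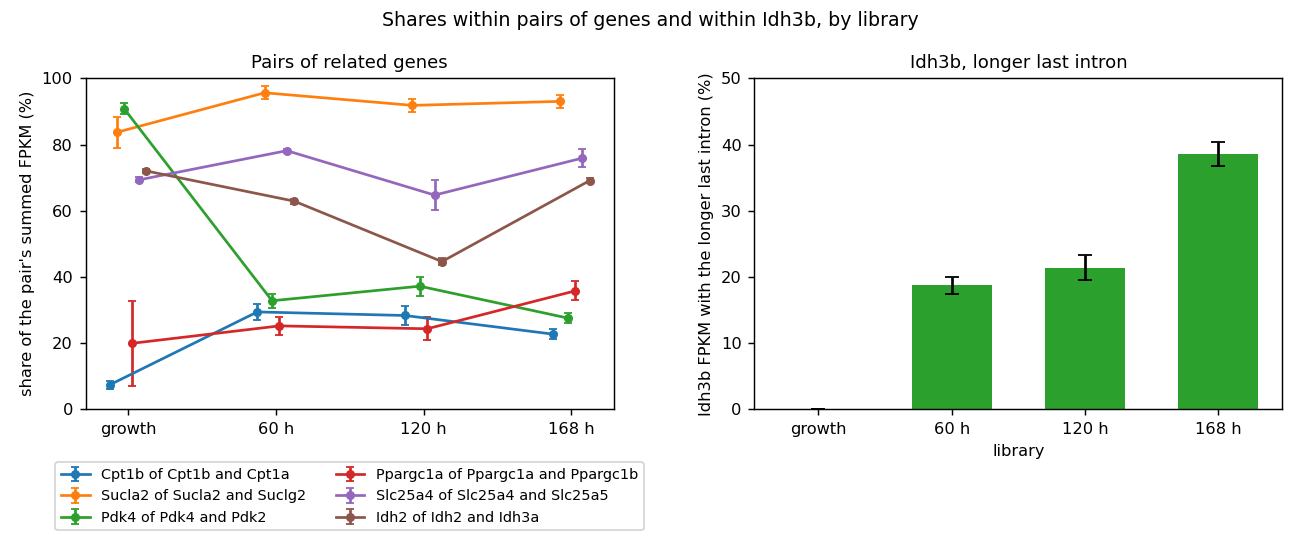
Left, the share that the first gene of each of 6 pairs held of the pair's summed FPKM, and right, the share of Idh3b FPKM with the longer last intron, in growth, at 60 h, at 120 h and at 168 h, with bars to the propagated confidence limits. The Pdk4 share falls to 32.7% at 60 h, against 90.8% in growth. The long-intron share of Idh3b is drawn at 0 in growth, where no such transcript was assembled, and is 38.6% at 168 h.

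The oxoglutarate dehydrogenase subunits stayed near one another, Ogdh ranging from 92.7 to 115 FPKM and Dlst, its succinyltransferase, from 105 to 169 FPKM. Suclg1, the shared alpha subunit of succinyl-CoA ligase, ranged from 116 to 141 FPKM, and fumarase, Fh1, from 82.2 to 104 FPKM. Of the ligase's beta subunits, Sucla2 makes the ATP form and Suclg2 the GTP form. Sucla2 had 27.4 ± 1.51, 43.7 ± 1.43, 30.8 ± 1.73 and 31.6 ± 1.31 FPKM in growth, at 60 h, at 120 h and at 168 h. Suclg2 had 5.34 ± 1.81, 1.98 ± 0.907, 2.74 ± 0.681 and 2.35 ± 0.707 FPKM, from 97 fragments or fewer in each library. Sucla2 held 83.7% ± 4.67, 95.7% ± 1.91, 91.8% ± 1.91 and 93.1% ± 1.96 of the pair. The fall of Suclg2 at 60 h, with a ratio of -1.09, was -0.74 through the introns and not past the rule, and 25.7% of its words also occur in Gm15163. Idh2 held 72.0% ± 0.723, 62.9% ± 0.743, 44.6% ± 1.11 and 69.1% ± 0.722 of its sum with Idh3a, the 120 h share being the one at which the Idh3a transcript was shortened.

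The 5 regulators ranged over more than a factor of 10 in level. Esrra, the estrogen-related receptor alpha that binds with PGC-1 coactivators, had the highest value in each library, with 27.4 ± 1.27 FPKM in growth, 27.6 ± 0.988 FPKM at 60 h, 31.7 ± 1.39 FPKM at 120 h and 48.0 ± 1.34 FPKM at 168 h. The 168 h library stood above the other 3 with limits apart, and its ratio to growth was 0.79, short of the rule. In growth its limits overlapped those of Nrf1. Nrf1, a transcription factor of nuclear genes for mitochondrial proteins, had 24.6 ± 2.93, 18.0 ± 3.42, 15.2 ± 6.78 and 13.5 ± 2.36 FPKM in the 4 libraries in order of time. Its ratio of 168 h to growth was -0.82 by the sum and -1.17, past the rule, through the introns.

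Ppargc1a encodes PGC-1 alpha, the inducible coactivator of mitochondrial genes (chromosome 5, 51848214 to 51945184). It had 1.01 ± 0.811 FPKM in growth, 1.43 ± 0.177 FPKM at 60 h, 1.69 ± 0.287 FPKM at 120 h and 2.03 ± 0.229 FPKM at 168 h. The growth value rests on 8 fragments in 2 pieces and its limits overlap those of all 3 later libraries. By the sum Ppargc1a was not past the rule in any comparison, and through the introns its ratio of 168 h to growth was 1.02 and past it. Ppargc1b, its relative, ranged from 3.65 to 5.28 FPKM by the sum, with 168 h lowest. Through the introns Ppargc1b had 2.77, 2.63, 3.44 and 3.65 FPKM in order of time, with 168 h highest. Ppargc1a made up 19.8% ± 12.8, 25.1% ± 2.68, 24.3% ± 3.50 and 35.7% ± 2.89 of the pair by the sum. Its shares through the introns were 14.9% ± 18.0, 35.2% ± 3.40, 33.0% ± 4.36 and 35.7% ± 2.89.

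Tfam encodes the factor that packages and transcribes mitochondrial DNA (chromosome 10, 70688458 to 70700837). It had 8.46 ± 0.567 FPKM in growth, 20.8 ± 1.29 FPKM at 60 h, 12.1 ± 1.14 FPKM at 120 h and 12.4 ± 0.875 FPKM at 168 h. The rise at 60 h was 1.20 by the sum and 1.04 through the introns. In growth the last exon was assembled whole, with 2990 bases, and at 60 h it was 748 bases long beside a separate transcript of 2298 bases at 2.35 FPKM. Over all assembled exons the ratio was 0.04, so by that measure growth and 60 h had nearly the same level. The 120 h and 168 h levels by that measure were 5.01 and 4.93 FPKM, below the 8.36 FPKM of growth. The ratio of 168 h to growth therefore differed in sign by measure. It was 0.50 by the sum, 0.41 through the introns and -0.66 over all assembled exons. Slc25a4, the muscle and heart adenine nucleotide translocator that exports mitochondrial ATP, had 429 ± 6.70, 307 ± 4.53, 359 ± 7.06 and 341 ± 5.05 FPKM in the 4 libraries. It was second only to Mdh2 at 168 h, and it held 69.3% ± 0.770, 78.1% ± 0.596, 64.7% ± 4.54 and 75.9% ± 2.77 of its sum with Slc25a5, the translocator known from dividing cells.

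At 60 h against growth, the step at which cells left growth medium, 4 members rose and 4 fell, beside a background of 11.0% risen and 15.7% fallen. Cd36, Fabp3, Pdk2 and Tfam rose by the sum and through the introns, beside 8.09% of all genes. For Cd36 and Fabp3 both measures were the same number. Cpt1a and Pdk4 fell by both measures, beside 9.11%, and Etfa and Suclg2 by the sum alone. The median was 0.07, with 24 members above 0 and 14 below, beside -0.21 over all genes. With the libraries rescaled by their median ratio the median of all genes came to -0.00054 and that of the members to 0.28. The rescaling shifted the all-gene median by more than 0.1 in each of the 4 comparisons, and turned the share of rises among all called genes to 55.7%, against 41.3% as deposited.

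At 120 h against 60 h 5 members rose and 0 fell, beside a background of 12.4% risen and 3.45% fallen. Fabp3, Lpl and Cs rose by both measures, beside 2.54% of all genes, while Dlat and Idh3a rose by the sum alone. For Fabp3 and Cs both measures were the same number. Cs was not past the rule after rescaling, at 0.84, or over all assembled exons, at 0.45. Lpl was 7.5-fold higher and Fabp3 6.79-fold higher at 120 h. Of the 38 members 32 were above 0, with a median of 0.31, beside 0.16 over all genes, and all 10 matched genes of fatty acid oxidation were above 0, from 0.10 to 0.87, as were 61.9% of all genes. After rescaling 25 members, 7 of the 10 and 48.5% of all genes were above 0, the members' median was 0.12 and the rises among all called genes were 66.4%, against 78.3% as deposited.

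At 168 h against 120 h 0 members rose and 2 fell, Dlat and Idh3a, beside a background of 3.74% risen and 10.2% fallen. Neither fell through the introns, while 2.62% of all genes fell by both measures. Lpl had a ratio of 0.97 by the sum, and 1.23 and past the rule through the introns. The median was -0.004, with 19 above 0 and 19 below. Rises among all called genes were 37.5% after rescaling and 26.8% as deposited, and for 168 h against growth they were 54.3% and 44.6%.

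Leaving out the 120 h library, the shallowest, 168 h was also set against 60 h. Then 4 members rose, Lpl, Pdk2, Fabp3 and Pdk4, and 0 fell, beside a background of 8.54% risen and 6.81% fallen. All 4 also rose through the introns, as did 4.04% of all genes, with 4.38% fallen by both measures. For Lpl, Pdk2 and Fabp3 both measures were the same number. Lpl was 15.0-fold higher at 168 h, Fabp3 3.32-fold, Pdk2 2.77-fold and Pdk4 2.16-fold. By the sum and through the introns, no TCA cycle gene, regulator or gene of fatty acid oxidation was past the rule in that comparison. Over all assembled exons Cpt1a was, at 1.49. Pdk4 was only just past the rule by the sum, at 1.004, and this comparison was not repeated after rescaling.

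Changes in the share of 1 intron chain by at least 30 percentage points, where both libraries had 5 FPKM or more of the gene, numbered 17 in 8 members over the 4 comparisons. They were found in 3 of 30 members tested at 60 h against growth, 4 of 31 at 120 h against 60 h, 5 of 35 at 168 h against 120 h and 5 of 30 at 168 h against growth, beside 27.3%, 31.1%, 29.4% and 33.3% of all genes tested, so each share of members was below the background. In 8 of them the leading chain of one library lay within that of the other, so that the change came with a shorter or broken assembly, as for Acsl1, Cpt1a and Dlat. The change of Idh3g at 168 h was a shift of its last intron by 2 bases at an unchanged length of 294 bases. The change of Idh3b was the choice of last intron described above. Dlst had a choice between splice sites 3 bases apart, in which the longer intron took 11.5% ± 2.38 in growth and 6.02% ± 1.26, 5.41% ± 1.64 and 6.01% ± 1.56 at 60 h, 120 h and 168 h.

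Other genes of these pathways were counted in 3 lists. Of 20 matched genes around pyruvate and the TCA cycle, 4 rose and 1 fell at 168 h against growth, all by both measures, beside 15.5% and 19.2% of all genes, or 12.2% and 14.7% by both measures. Pcx, pyruvate carboxylase, which refills the cycle with oxaloacetate, had 28.6 ± 0.802 FPKM at 168 h, against 3.71 ± 0.583 FPKM in growth, though no transcript of it was listed at 60 h. Pdp1, the phosphatase that reactivates pyruvate dehydrogenase, had 13.5 ± 1.11 FPKM at 168 h, against 3.09 ± 0.415 FPKM in growth. Me2, the mitochondrial malic enzyme, fell to 15.6 ± 0.749 FPKM at 168 h, against 64.3 ± 1.83 FPKM in growth. At 60 h against growth 2 of the 20 rose and 2 fell, beside 11.0% and 15.7% of all genes, 1 of the falls being that of Pcx, which had no listed transcript there. Pdk1, a further kinase, had 15.5 ± 0.686 FPKM at 60 h, against 4.88 ± 1.49 FPKM in growth, and Got1, the cytosolic aspartate aminotransferase of the malate shuttle, had 148 ± 2.46 FPKM at 60 h, against 61.9 ± 2.08 FPKM in growth. At 120 h against 60 h 0 fell, beside 3.45%, and the 1 rise, beside 12.4%, was again that of Pcx, from no listed transcript at 60 h. At 168 h against 120 h 0 rose and 2 fell, beside 3.74% and 10.2%, Pdk1 with 8.60 ± 0.399 FPKM at 168 h, against 24.0 ± 1.20 FPKM at 120 h.

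Of 31 further genes of fatty acid use, 9 rose and 2 fell at 168 h against growth, beside 15.5% and 19.2% of all genes, and 5 and 2 did by both measures, beside 12.2% and 14.7%. Acsl6, an acyl-CoA synthetase, had 20.9 ± 2.54 FPKM at 168 h, against 0.468 ± 0.935 FPKM in growth, where the limit reached below 0. Mlycd, malonyl-CoA decarboxylase, whose substrate blocks Cpt1, had 24.1 ± 1.71 FPKM at 168 h, against 1.96 ± 0.693 FPKM in growth. Fabp5, the epidermal fatty acid binding protein, fell to 0.766 ± 0.419 FPKM at 168 h, against 11.5 ± 1.41 FPKM in growth. At 60 h against growth 7 of the 30 compared rose and 5 fell, beside 11.0% and 15.7%, and 5 and 3 did by both measures, beside 8.09% and 9.11%. Plin2, a lipid droplet coat protein, fell to 139 ± 3.21 FPKM at 60 h, against 415 ± 5.78 FPKM in growth. At 120 h against 60 h 4 of the 31 rose and 0 fell, beside 12.4% and 3.45%, and 1 and 0 did by both measures, beside 2.54% and 1.83%. Crat, carnitine acetyltransferase, had 54.2 ± 2.35 FPKM at 120 h, against 15.4 ± 0.519 FPKM at 60 h. Its level was 35.2 ± 2.27 FPKM in growth and 34.3 ± 0.779 FPKM at 168 h, so 60 h was its lowest library. At 168 h against 120 h 2 rose and 3 fell, beside 3.74% and 10.2%, and 1 and 1 did by both measures, beside 2.03% and 2.62%. Slc27a1, a fatty acid transport protein, had 58.0 ± 3.09 FPKM at 168 h, against 28.3 ± 3.27 FPKM at 120 h. Between 168 h and 60 h 5 rose and 4 fell, beside 8.54% and 6.81%, and 4 and 2 did by both measures, beside 4.04% and 4.38%. Pnpla2, the first lipase of stored triglyceride, rose to 77.2 ± 1.88 FPKM, against 32.0 ± 1.14 FPKM at 60 h.

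Of 28 further matched genes of regulation and biogenesis, 2 rose and 5 fell at 168 h against growth, beside 15.5% and 19.2% of all genes, and 1 and 4 did by both measures, beside 12.2% and 14.7%, so the falls were near the background. Pparg, the lipid-sensing nuclear receptor, fell to 1.63 ± 0.277 FPKM at 168 h, against 20.7 ± 3.66 FPKM in growth. Hspd1, the mitochondrial chaperonin, fell to 18.8 ± 2.16 FPKM at 168 h, against 83.7 ± 9.61 FPKM in growth, and Tomm40, the pore of the outer membrane import complex, fell to 59.0 ± 5.95 FPKM, against 129.7 ± 9.97 FPKM. At 60 h against growth 2 of the 28 rose and 7 fell, beside 11.0% and 15.7%, and 0 and 5 did by both measures, beside 8.09% and 9.11%. Slc25a5 fell to 85.8 ± 2.71 FPKM at 60 h, against 189.7 ± 6.20 FPKM in growth. At 120 h against 60 h 5 rose and 1 fell, beside 12.4% and 3.45%, and 1 and 0 did by both measures, beside 2.54% and 1.83%. At 168 h against 120 h 0 rose and 4 fell, beside 3.74% and 10.2%, and 0 and 2 did by both measures, beside 2.03% and 2.62%. Twnk, the mitochondrial DNA helicase, had 26.4 ± 2.20 FPKM at 120 h, against 6.25 ± 0.378 FPKM at 60 h, a rise by both measures. Its level was 21.4 ± 1.86 FPKM in growth and 22.0 ± 0.773 FPKM at 168 h, so 60 h was its lowest library.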

How the data were processed

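The authors deposited, for each of the 4 libraries, assembled transcripts with an RPKM value and its confidence limits as text in the last column, and each line names Cufflinks, per the file headers. TopHat 1.0.13 and Cufflinks 0.8.0 are named in the submitters' processing notes. For the genome build, the sources used here name none. The values are called FPKM because in loci with 1 transcript most limits are 2 square roots of a whole number of fragments away from their value. That gave the library sizes, and the implied counts under 100 fragments were whole within 0.01 for 88.7%, 89.0%, 88.9% and 89.3% of values in growth, at 60 h, at 120 h and at 168 h.

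Transcripts were named by runs of intron, exon and intron lengths unique in GENCODE release M21, with no coordinate shared between builds. Of 137519 introns 122427 were named by runs and 3211 by their own length beside a named neighbour. Single-exon transcripts counted where at least 50% lay within a gene's assembled exons. Isoform shares used intron chains, and introns at a shared splice site as an addition made after seeing the data. Copies were words of 50 bases found in another annotated gene.

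With 1 library per time the size rule of the results took the place of a test. Members, gene lists and rules were chosen with earlier results of these data known. Values in every library were set to be printed for members past the rule or in a named pair and ranges for the rest, and those printed in full for further members were chosen after their values were seen. Other genes named were at most 3 others per list and comparison with at least 10 FPKM. Alternatives were a pseudocount of 0.1, no minimum, median-ratio rescaling, 2 other gene measures and genes assembled in both libraries. Python 3.11.15, pandas 2.3.3 and numpy 2.4.6 were used.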

Additional observations from a re-analysis of the deposited data

How the results depend on the processing

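No paired analysis was possible because each time has 1 library and the labels carry no replicate number, and no library could be left out within a group. The pseudocount of 0.1 and no minimum kept all 24 rises and falls of single members. The pseudocount of 0.1 added 2 falls, Fabp3 at 168 h against 120 h and Suclg2 at 168 h against growth, at -1.02 and -1.15. Rescaling by median ratios kept 19, the introns 17 and all assembled exons 14.

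For 60 h against growth, 4 rises became 7 over all exons and 2 among genes assembled in both libraries. The 4 falls became 2 through the introns, over all exons and by both measures, and the median of 0.07 became 0.28 after rescaling. For 120 h against 60 h, 5 rises became 3 after rescaling, through the introns and by both measures, and 2 over all exons, with a median of 0.12 after rescaling. For 168 h against 120 h, 0 rises became 1 after rescaling, through the introns and over all exons. The 2 falls became 1 after rescaling and 0 through the introns, over all exons and by both measures, and the median became 0.15 after rescaling. For 168 h against growth the median of 0.26 became 0.45 after rescaling and 0.35 through the introns. Lpl at 60 h against growth was -0.29, but 1.15 through the introns and 1.16 over all exons, and Dlat at 120 h against 60 h was -0.0082 over all exons. The cause was not tested.

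Through the introns Pdk4 held 94.1%, 23.8%, 25.3% and 22.8% of its pair in growth, at 60 h, at 120 h and at 168 h. Cpt1b held 4.02% in growth and 31.9% at 60 h, Sucla2 92.2%, 97.8% and 95.8% in growth and at 60 h and 168 h, and Ppargc1a 35.2% and 33.0% at 60 h and 120 h. At 120 h Slc25a4 held 74.7% and Idh2 50.2%.

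The 17 chain changes became 14 at 10 FPKM and 25 at 20 percentage points. Low members limit these readings, above all Ppargc1a, Suclg2 and Lpl in growth, with 8, 97 and 45 fragments.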
